A study of Mus musculus with 16 samples.

Results

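Chromatin accessibility was compared between pancreatic islets of CAST_EiJ (CAST) and PWK_PhJ (PWK) mice, with 2 samples for each strain, 1 from a female and 1 from a male. These 4 samples are part of a survey of 16 islet samples from the 8 founder strains of the Diversity Outbred mice, in which chromatin was cut with the Tn5 transposase and the open fragments were sequenced (ATAC-seq). No treatment, transgene or deletion was named for either strain, each sample was made from 50 islets of average size, and neither the age of the mice nor the number of mice behind a sample was given in the sources used here. Strain was thus replicated only across the sexes, and a p-value measures the spread between the female and the male sample of a strain, which may be technical.

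Peaks of the 4 samples on chromosomes 1 to 19 that shared at least 1 base were merged into 236245 regions. A separate merge of the peaks of all 16 samples gave 358621 regions. Of the 236245 regions, 67883 (28.7%) held a peak in all 4 samples and were compared by the height of the signal at the peak summit. A further 24410 regions held a peak in both CAST samples and in neither PWK sample, and 9525 regions held one in both PWK samples and in neither CAST sample.

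CAST and PWK are wild-derived inbred strains of different subspecies of the house mouse, Mus musculus castaneus and Mus musculus musculus, whereas the other founder strains are classical laboratory strains or, for WSB, derived from wild Mus musculus domesticus. Islets are small endocrine organs within the pancreas, made mostly of insulin-secreting beta cells with fewer alpha, delta and PP cells. Accessible regions mark promoters and enhancers, the stretches of DNA where transcription factors bind, and sequence variants between strains can create or remove such binding sites.

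A few regions show the kinds of difference found. The reference sequence (GRCm38, strain C57BL/6J, plus strand) of 200 bases around the highest summit is given for an intron of Palmd that was open in CAST and in every other strain but nearly closed in PWK, for an intron of Ptprk that was open in PWK and WSB, for an intron of Pcdh9 with a high signal in CAST alone, for an intergenic site 678520 bases from the nearest coding start site, that of Luzp2, with no peak in CAST, for an intron of the potassium channel gene Abcc8, and for the Nadk2 promoter. Capitals mark matches to any of 11 short motifs, which are spelled out with the motif counts. These are the bases of the reference strain, and the CAST and PWK bases at these positions were not analysed here.
Palmd intron, chr3:116950100-116950299: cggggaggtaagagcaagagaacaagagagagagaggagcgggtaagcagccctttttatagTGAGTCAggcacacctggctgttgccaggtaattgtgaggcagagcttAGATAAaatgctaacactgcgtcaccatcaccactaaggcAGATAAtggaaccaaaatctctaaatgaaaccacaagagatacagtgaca
Ptprk intron, chr10:28524453-28524652: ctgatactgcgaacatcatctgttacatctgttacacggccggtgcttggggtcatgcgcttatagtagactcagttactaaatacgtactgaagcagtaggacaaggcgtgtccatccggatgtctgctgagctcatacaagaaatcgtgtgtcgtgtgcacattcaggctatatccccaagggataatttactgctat
Pcdh9 intron, chr14:93213398-93213597: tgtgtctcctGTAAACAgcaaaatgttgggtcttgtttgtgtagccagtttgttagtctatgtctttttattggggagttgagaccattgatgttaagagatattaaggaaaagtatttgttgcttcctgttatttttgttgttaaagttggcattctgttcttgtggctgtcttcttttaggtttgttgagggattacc
Luzp2 intergenic, chr7:54156657-54156856: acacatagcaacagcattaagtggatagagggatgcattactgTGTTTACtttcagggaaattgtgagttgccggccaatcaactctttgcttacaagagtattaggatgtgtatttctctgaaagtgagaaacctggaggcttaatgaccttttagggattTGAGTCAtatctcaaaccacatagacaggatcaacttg
Abcc8 intron, chr7:46145904-46146103: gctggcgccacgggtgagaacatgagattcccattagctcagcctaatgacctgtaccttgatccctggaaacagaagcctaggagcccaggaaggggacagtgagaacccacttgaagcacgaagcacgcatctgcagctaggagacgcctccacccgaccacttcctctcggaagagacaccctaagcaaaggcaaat
Nadk2 promoter, chr15:9085258-9085457: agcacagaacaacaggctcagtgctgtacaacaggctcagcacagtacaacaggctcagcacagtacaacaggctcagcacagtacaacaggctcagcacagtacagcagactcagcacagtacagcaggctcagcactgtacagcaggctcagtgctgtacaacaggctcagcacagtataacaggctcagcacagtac

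The Palmd window held 1 match to the AP-1 motif and 2 to the GATA motif, the Luzp2 window 1 match each to the FOXA and AP-1 motifs, and the Pcdh9 window 1 match to the FOXA motif. No motif searched for was found in the Ptprk, Abcc8 and Nadk2 windows. The Nadk2 window is a short unit repeated in tandem, as the letters show, and the whole Pcdh9 region (100%) is masked as repeat in the reference, and whether a strain carries further copies of either sequence was not tested.

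The 4 samples differed in depth of signal. The median summit signal over the 67883 shared regions was 64 in the CAST female, 81 in the CAST male, 40 in the PWK female and 20 in the PWK male. The PWK male stood apart: it had the most peaks of the 4 (145886, against 121407 to 140841), the lowest median −log10 p (1.80, against 3.59 to 4.16), and 49856 regions (21.1%) that no other sample of the 4 held. Signals were therefore divided by the sample's own median over the shared regions, and a value written below as a scaled signal of 1 is that median. Across the shared regions, the centred log2 signals of the CAST samples correlated at r = 0.97 and those of the PWK samples at 0.88, whereas pairs of different strain lay between 0.80 and 0.82; the regions are not independent replicates, and no p is given.

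Promoters of endocrine markers were open in both strains. All 7 beta cell markers examined, among them Ins1, Ins2, Pdx1 and Nkx6-1, had a peak within 3 kb of a start site in every sample, with summed scaled signals of 27.7 and 25.9 in CAST and 20.6 and 22.3 in PWK. The 5 pan-endocrine markers were also open in every sample, as were all 4 alpha cell markers on the autosomes. Of 9 acinar markers, 3 or 4 had a peak, with summed scaled signals of 1.98 to 2.75, and the digestive enzyme promoters Cpa1, Cela1, Ctrb1 and Cel had none in any sample, while Pnlip had one in both PWK samples (0.325 and 0.4) and Prss2 one in the PWK male (0.55). Duct, endothelial and leukocyte markers summed to 2.60 to 3.48, 0.704 to 0.953 and 0.375 to 1.00, and CAST and PWK overlapped in each. Stellate markers summed to 5.03 and 5.48 in CAST and to 4.90 and 4.30 in PWK. For delta cells the summed scaled signal was 1.66 and 2.12 in CAST against 0.450 and 0.150 in PWK, nearly all of it from Hhex, a transcription factor gene of delta cells on chromosome 19, while the Sst promoter was at 0 in 3 of the 4 samples and at 0.15 in the PWK female. Fewer cells of a type and a weaker signal in each cell cannot be told apart in such bulk samples.

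Chromosomes 11, 18 and 19 were displaced against the other autosomes. This is given first because it separated the CAST from the PWK samples, though it was also seen in samples of other strains. The median log2 difference between CAST and PWK (CAST minus PWK) was 0.72 on chromosome 11, 0.35 on chromosome 19 and -0.46 on chromosome 18, while it lay between -0.21 and 0.09 on the other 16 autosomes. On chromosome 11 the displacement ran along the whole chromosome, with medians between 0.58 and 0.85 in all 13 windows of 10 Mb. It was less even on chromosome 18, where the windows ran from -0.76 to -0.03, and on chromosome 19, where they ran from -0.17 to 0.70. On chromosome 11 it was present in each sample: the median centred log2 level there was 0.66 in the CAST female, 0.44 in the CAST male, -0.19 in the PWK female and -0.22 in the PWK male. Chromosome 11 also held 4.22% and 4.03% of the peaks of the CAST samples but 2.69% and 1.62% of the PWK samples, and 27.8% of its regions were called in CAST only. On chromosome 14 the displacement was local, with medians of -1.12 between 0 and 10 Mb and -0.95 between 40 and 50 Mb, and between -0.31 and 0.24 elsewhere. What displaced these chromosomes was not tested, so every value named on chromosome 11, 18 or 19 is given below also after centring each sample within each chromosome.

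**Figure D1:**
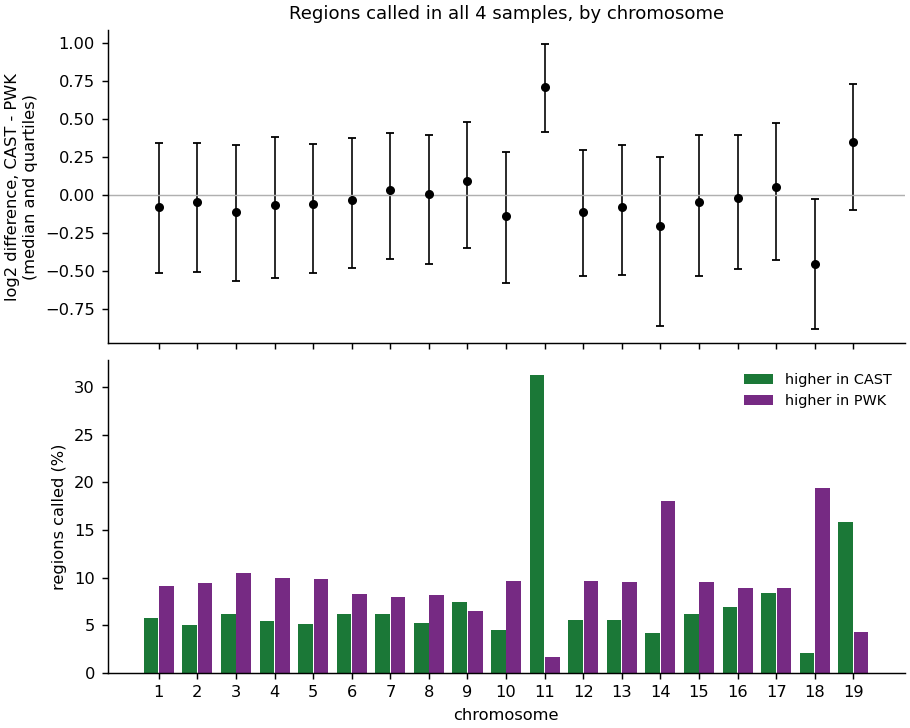
Regions called in all 4 samples, by chromosome. The upper panel gives the median log2 difference in summit signal (CAST minus PWK) with bars from the lower to the upper quartile, and the lower panel the percentage of regions called higher in CAST (green) or in PWK (purple); chromosome 11 stands highest, with a median of 0.72 and 31.3% of its regions called higher in CAST.

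Signal at the 67883 shared regions differed between CAST and PWK in both directions. With limma, 4432 regions (6.53%) were higher in CAST and 6543 regions (9.64%) were higher in PWK at an adjusted p under 0.05. The median difference among called regions was 2.29-fold for those higher in CAST and 2.69-fold for those higher in PWK. A difference of at least 4-fold was reached by 320 regions higher in CAST and by 1069 regions higher in PWK, and the largest were a log2 difference of 4.58 towards CAST and -6.59 towards PWK. In all of these called regions, both samples of the higher strain lay above both samples of the lower strain. The calls were made on these same values, so this is no further support for them.

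**Figure D2:**
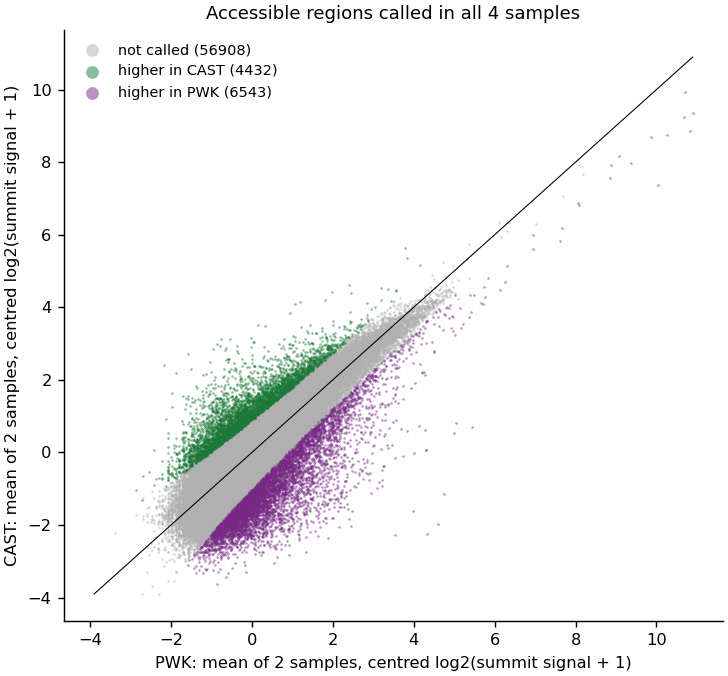
Centred log2(summit signal + 1) of the 67883 regions called in all 4 samples, PWK mean on the x axis and CAST mean on the y axis (2 samples each), with regions called higher in CAST in green, those called higher in PWK in purple and the rest in grey; the line marks equal values. The 4432 green points lie above the line and the 6543 purple points below it, and the purple cloud reaches farther from the line.

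After centring within each chromosome, 4144 regions (6.1%) were higher in CAST and 5739 (8.45%) were higher in PWK, and 3458 and 5481 of these were among those called before. On chromosome 11 the percentage of regions higher in CAST was 31.3% before and 1.97% after that centring. Without any centring, 26475 regions were higher in CAST and 263 in PWK, so that CAST held 99.0% of the calls against 40.4% with centring, and the split between the directions rests on it. Each library also weighed on the counts: without the CAST female 774 and 2108 regions, without the CAST male 715 and 2344, without the PWK female 11808 and 12867, and without the PWK male 13607 and 12574 were higher in CAST and in PWK, the spread then coming from the remaining pair alone.

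Regions higher in the 2 strains lay at different places relative to genes. Promoters (within 3 kb of a start site) made up 38.2% of the regions higher in CAST and 25.4% of those higher in PWK, against 35.5% of the regions called in neither direction. Conversely, 35.1% of the regions higher in PWK were intergenic, against 26.7% of those higher in CAST. After centring within each chromosome the promoter percentages were 33.7% and 25.1%. The regions higher in CAST were wider, with a median of 984 bases against 586 bases for those higher in PWK. Direction also moved with signal level: in the lowest of 5 equal groups by mean level, 0.751% of regions were higher in CAST and 13.0% in PWK, and in the highest group, 63.3% of it promoters, 7.31% and 5.55%. After cyclic loess normalization, which removes a dependence of the difference on the level, the lowest group had 2.50% and 4.15%, and promoters made up 31.9% and 27.7% of the regions called.

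The largest difference towards CAST lay in an intron of Pcdh9, a protocadherin gene of cell adhesion (chr14:93213089-93213953). Its summit signal was 347 in the CAST female and 427 in the CAST male, and 5 and 6 in the PWK female and male. The log2 difference was 4.58 ± 0.36 (SE; adjusted p = 6.1e-08), and no sample of the other 6 strains held a peak there. The region stood out in CAST among all 8 strains.

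The second largest, in an intron of Palmd (chr3:116949207-116951199), showed the opposite pattern. Its scaled signal was 6.39 and 6.98 in CAST and 0.325 and 0.300 in PWK, a log2 difference of 4.29 ± 0.30 (adjusted p = 1.0e-08). All 12 samples of the other strains held a peak. Scaled over the regions called in all 16 samples, which is called the 16-sample scale below, they lay at 3.47 to 6.12, the CAST samples at 3.86 and 4.15 and the PWK samples at 0.210 and 0.188. Here PWK was the strain apart. An intergenic region 32153 bases from the start of Tmem212 (chr3:27862411-27864215) had the same pattern, with scaled signals of 8.44 and 9.33 in CAST, 0.475 and 0.950 in PWK; on the 16-sample scale the CAST samples, at 5.09 and 5.56, fell among the other strains, at 3.29 to 5.95.

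Promoters among the 10 largest differences towards CAST were those of Lrp11, of Trpm1, which encodes a cation channel known from melanocytes and retinal bipolar cells, and of Gm25501, a gene known by number near Ank2. The Lrp11 region (chr10:7594732-7595704) had scaled signals of 8.67 and 9.05 in CAST and 0.475 and 0.700 in PWK, and the other strains, at 0.564 to 1.99 on the 16-sample scale, lay between the CAST samples (5.24 and 5.39) and the PWK samples (0.306 and 0.438). The Trpm1 region (chr7:64244030-64245302) had 7.25 and 7.46 in CAST and 0.350 and 0.700 in PWK. Both CAST samples were far above both PWK samples at each.
The others of the 10 lay in introns of Gm32357 and Lin7a and in intergenic sequence near Adra2a and Fam107a, with log2 differences of 3.53 to 4.08. The region 61770 bases from Adra2a, which encodes the adrenergic receptor that restrains insulin secretion, lies on chromosome 19 (chr19:54107030-54107994), and its log2 difference of 4.08 became 3.69 after centring within each chromosome. Its summit signals were 315 and 353 in CAST and 6 and 8 in PWK. All 20 of the regions with the largest differences stayed called when any 1 sample was left out.

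The 10 largest differences towards PWK were larger still, with log2 differences of -4.24 to -6.59. The Nadk2 promoter region (chr15:9085112-9085559), at the gene of a mitochondrial NAD kinase, had summit signals of 15 and 14 in CAST and of 610 and 573 in PWK. The log2 difference was -6.57 ± 0.32 (adjusted p = 4.8e-11), and on the 16-sample scale the PWK samples, at 9.84 and 17.9, stood above all other strains, at 0.216 to 1.63. This is the region with the tandem repeat shown above.

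The Ptprk intron (chr10:28523833-28525159), in a receptor tyrosine phosphatase gene, had summit signals of 15 and 13 in CAST and of 473 and 243 in PWK. The log2 difference was -5.82 ± 0.30 (adjusted p = 1.4e-10). On the 16-sample scale the WSB samples, at 7.14 and 7.91, were as high as the PWK samples, at 7.59 and 7.63, while the 10 samples of the other strains reached at most 1.4. An intron of Spata16 (chr3:26968806-26970740; scaled signals 0.297 and 0.333 in CAST, 17.7 and 15.4 in PWK) and an intron of Cdh11, a cadherin gene (chr8:102685546-102685799; 0.156 and 0.346 against 5.93 and 5.35), were higher in PWK than in any other sample of the 16.
Of the 10, 6 were at genes known only by number, and 4 of these, Gm8206, Gm8108, Gm10406 and Gm2237, lie within the first 20 Mb of chromosome 14, where many similar genes stand side by side. The Gm8206 region (chr14:6035501-6037795) had summit signals of 16 and 19 in CAST and 881 and 574 in PWK, a log2 difference of -6.59 ± 0.28, and the other strains spread from 1.20 to 15.2 on the 16-sample scale. These values are uncertain, because reads from near-identical copies cannot be told apart, and whether PWK carries more copies was not tested. The 200-base window of another of the 6, in an intron of Gm5444, is also a short unit repeated in tandem.

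**Figure D3:**
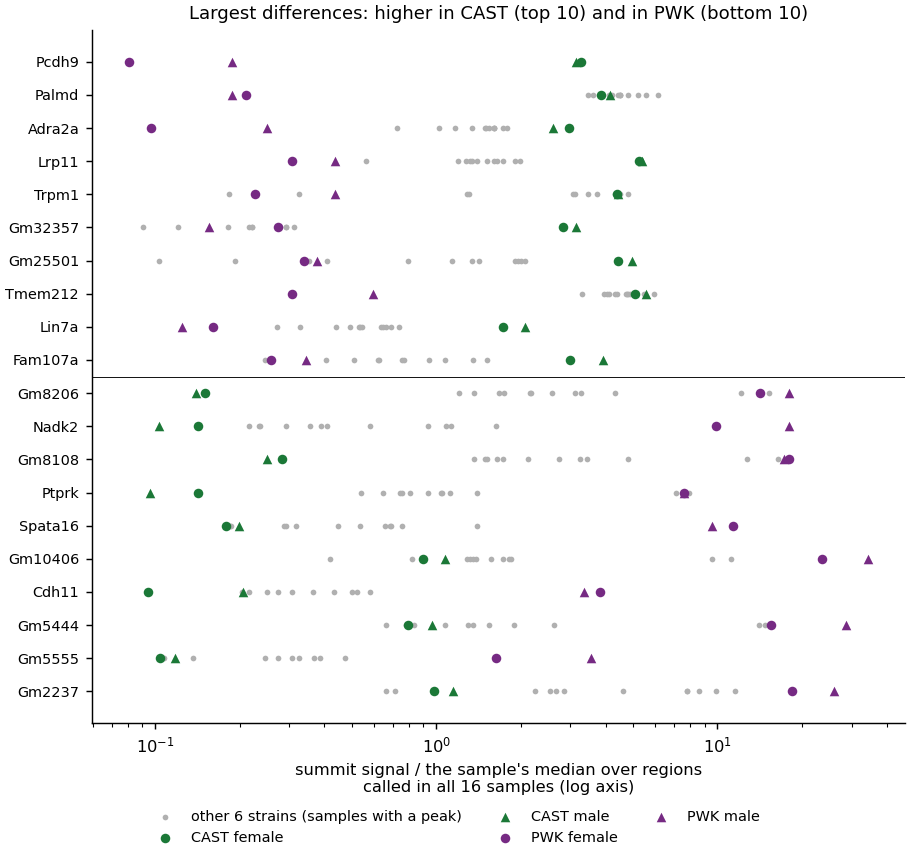
The 10 regions with the largest difference towards CAST (above the line) and towards PWK (below), named by their gene or the nearest coding gene. Each row gives each sample's summit signal divided by its median over the regions called in all 16 samples, on a log axis. CAST is in green, PWK in purple (circles female, triangles male) and the other strains' samples in grey. Rows were chosen among regions where CAST and PWK samples do not overlap, and grey points fall beside either strain or between them.

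The other 6 strains place each difference. Among 41212 regions called in all 16 samples, 3181 were higher in CAST than in PWK. In 39.2% of these the CAST mean lay above the means of all 6 other strains and the PWK mean did not lie below them, in 30.7% the PWK mean lay below all 6 and the CAST mean not above, and in 17.1% both held. Of the 3288 regions higher in PWK, the PWK mean alone stood above the others in 19.2%, the CAST mean alone stood below them in 49.0%, and both held in 24.4%. Over all 41212 regions CAST alone stood above in 15.9% and PWK alone below in 13.4%, and PWK alone stood above in 13.1% and CAST alone below in 20.1%. Among the regions higher in PWK, a CAST mean below all others was thus more frequent than a PWK mean above all others, and that order also held over all regions. Centring within each chromosome gave 37.8% and 29.3% for the first pair and 20.0% and 49.5% for the second.

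Regions called in one strain and not in the other were more numerous for CAST. Peaks in both CAST samples and neither PWK sample made up 10.3% of the 236245 regions and the reverse 4.03%; these are calls of presence with no test. Most were low: the median scaled signal of the regions called in CAST only was 0.328 and 0.296 in the CAST female and male, and that of the regions called in PWK only was 0.4 and 0.5 in the PWK female and male. Only 3.72% and 3.30%, and 9.14% and 13.1%, reached the median of the shared regions. Without the PWK male the counts were 29228 and 26976, and without the PWK female 36913 and 59381, while without the CAST female they were 40221 and 11325 and without the CAST male 47338 and 11662. CAST thus had the larger count in each case but 1, since without the PWK female the PWK count was the larger.

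The other strains often lacked these regions. No peak was present in any of the 12 other samples at 25.7% of the CAST-only and 33.8% of the PWK-only regions, against 1.48% of the regions called in all 4. WSB shared the most, with a peak in both of its samples at 40.2% of the CAST-only and 33.6% of the PWK-only regions, while the other 5 strains shared 9.34% to 18.3% and 15.2% to 22.4%. WSB also held 93.3% of the regions called in all 4, and the WSB female has the longest peak list of the 16 samples (167051 peaks). In 783 CAST-only regions (3.21%) and 491 PWK-only regions (5.15%), both samples of all 6 other strains held a peak, so that 1 strain of the 8 lacked it.

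**Figure D4:**
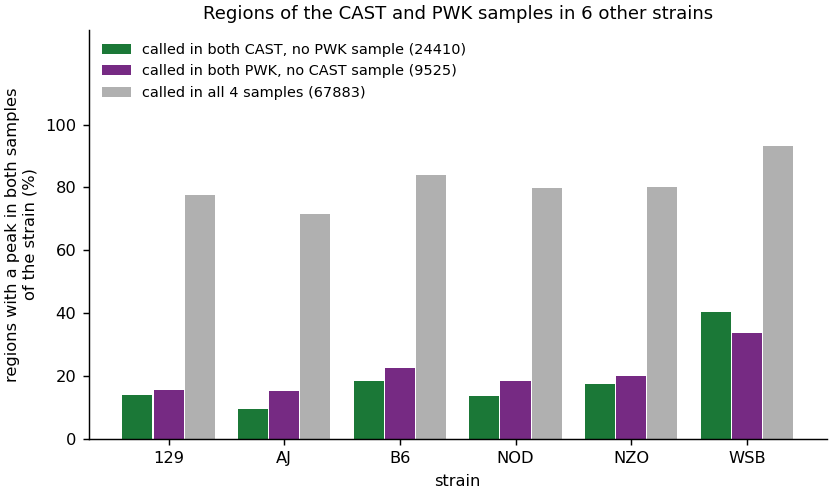
Percentage of regions with a peak in both samples of each of the 6 other strains, for regions called in both CAST and neither PWK sample (green, 24410), in both PWK and neither CAST sample (purple, 9525) and in all 4 samples (grey, 67883). WSB holds the highest bar of each colour, at 40.2%, 33.6% and 93.3%.

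The 10 highest CAST-only regions were of 2 kinds. At 4 of them no other strain had a peak. The highest, in an exon of Cers5, a ceramide synthase gene (chr15:99735604-99736133), had summit signals of 3101 and 3464, which are scaled signals of 48.5 and 42.8. The others were in an exon of Ubqln1, a ubiquilin gene (1098 and 1177), 389544 bases from the start of Atp23 (741 and 997), and in an intron of Srl (578 and 814). At the other 6 regions, 9 to 12 samples of the other strains held a peak and PWK had none. An intron of Ryr2, the gene of a calcium release channel (chr13:11880130-11881106), had scaled signals of 8.05 and 9.68 in CAST (4.86 and 5.76 on the 16-sample scale), and 10 samples of the other strains lay at 5.73 to 11.4 on that scale, while the NOD samples had no peak either. An intron of Farp1 (chr14:121190045-121192258) had 9.33 and 9.47 in CAST; on the 16-sample scale these were 5.63 and 5.64, and the 12 samples of the other strains lay at 3.13 to 5.65.

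Among the 10 highest PWK-only regions, 6 were without a peak in any other strain. An intron of Nup107, a nuclear pore gene (chr10:117768797-117769641), had summit signals of 2040 and 1556. The 200 bases around its highest summit are a short unit repeated in tandem, as at Nadk2. Whether PWK carries further copies was not tested. A 100-base region at the promoter of Gm12155 on chromosome 11 had 1862 and 1842. The region near Luzp2 shown above (chr7:54156298-54156978) was the one of the 10 that all 12 samples of the other strains shared: its scaled signal was 10.4 and 6.95 in PWK (6.71 and 4.34 on the 16-sample scale), the others lay at 1.95 to 8.15 on that scale, and CAST alone had no peak. An intron of Cdh18 (chr15:22752136-22753147) is masked as repeat over its whole length (100%), as was the Pcdh9 region, and 9 samples of the other strains held a peak there.

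Most one-strain regions were spread over the genome, and the 5 windows of 1 Mb with the most of them are described for each strain. The median window that held any region had 8 CAST-only and 3 PWK-only regions. The window with most CAST-only regions, chromosome 7 from 8 to 9 Mb, held 79 among 200 regions and no PWK-only region, at a cluster of vomeronasal receptor genes (Vmn2r40 to Vmn2r45). Windows at the Sp100, Sp110 and Sp140 genes on chromosome 1 (85 to 86 Mb, 70 of 204 regions) and at the Klra genes of natural killer cell receptors on chromosome 6 (130 to 131 Mb, 70 of 285) were also among the 5 with the most. On chromosome 10 from 33 to 34 Mb, with Trdn, Clvs2 and the sulfotransferase genes Sult3a1 and Sult3a2, 60 of the 71 CAST-only regions had no peak in any other strain, as had 58 of 66 on chromosome 3 from 91 to 92 Mb.
For PWK, 3 of the 5 windows lay on chromosome 14 between 4 and 8 Mb, with 112, 79 and 86 PWK-only regions at genes known by number. A window on chromosome 12 (115 to 116 Mb, 89 of 281 regions) holds 37 immunoglobulin variable segments. On chromosome 13 from 3 to 4 Mb, where Ucn3, a peptide hormone gene of beta cells, and Net1 lie, 70 of the 83 PWK-only regions had no peak in any other strain. Neighbouring regions are not independent, and many of these stretches hold multigene families in which reads of near-identical copies cannot be told apart.

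Regions in and within 10 kb of 250 genes in 17 lists were then read against the whole table, where 6.53% were higher in CAST and 9.64% in PWK and the median log2 difference was -0.04. Of the genes, 6 were not found on the autosomes under the listed name. The regions of a gene are not replicates of each other, and a region within 10 kb of genes of several lists counts in each. Of 62 called regions named in all, some lost the call without a CAST sample, and none did without a PWK sample. The spread then came from the remaining pair alone, and the CAST pair lay closer together (r = 0.97) than the PWK pair (0.88). Such losses therefore do not show that a difference rested on the CAST samples. The regions at Abcc8, Scn9a, Rab27a, Scg5, Eif2ak3, H2-D1, H2-K1, Tap2, Igf1r, St18, Tek and Ptprc stayed called whichever sample was left out.

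**Figure D5:**
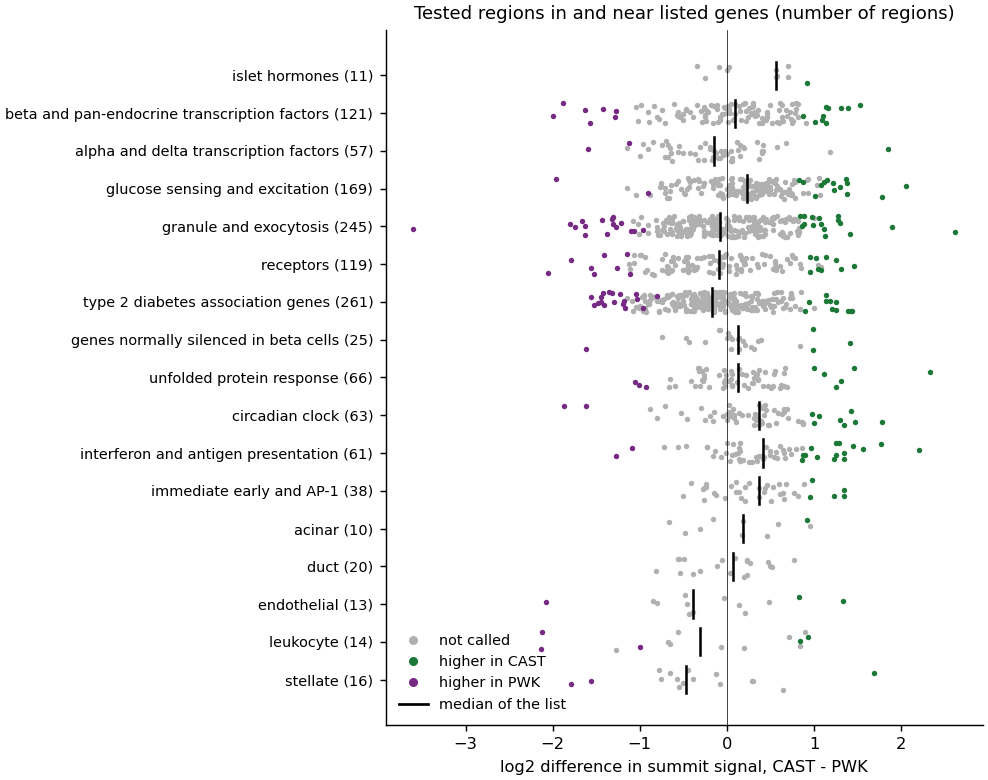
Log2 difference in summit signal (CAST minus PWK) of each tested region in or within 10 kb of the genes of 17 lists, with the number of regions in brackets. Points are regions (green called higher in CAST, purple higher in PWK, grey not called), black bars list medians; the list of interferon and antigen presentation genes has 15 green and 2 purple points among 61.

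Genes of glucose sensing and excitation are the transporters, enzymes and channels by which beta cells turn glucose into calcium entry. Few of their regions were higher in PWK. Of 169 regions, 14 (8.28%) were higher in CAST and 2 (1.18%) in PWK, against 6.53% and 9.64% of all regions. The list's median was 0.23. After centring within each chromosome 20 were higher in CAST and 1 in PWK, and after loess 12 and 3.
The largest difference of the list lay in an intron of Abcc8, which encodes the sulfonylurea receptor subunit of the ATP-sensitive potassium channel (chr7:46145404-46146615). Its summit signal was 524 and 632 in CAST and 66 and 45 in PWK, a scaled signal of 8.19 and 7.80 against 1.65 and 2.25. The log2 difference was 2.06 ± 0.26 (adjusted p = 2.0e-05). On the 16-sample scale the other strains, at 2.31 to 4.68, lay above the PWK samples (1.06 and 1.41) and reached up to the CAST samples (4.94 and 4.65). A second Abcc8 intron (chr7:46130652-46133182) was also higher in CAST, with 429 and 476 against 144 and 48 (log2 difference 1.11 ± 0.27, adjusted p = 0.0078). An intron of the sodium channel gene Scn9a was higher in PWK (log2 difference -1.96, adjusted p = 9.2e-04), as was, chosen after its values were seen, a region near Slc2a2, the glucose transporter gene (-0.90, adjusted p = 0.049).

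Genes of the interferon response and antigen presentation showed the highest percentage of any of the 17 lists: of 61 regions, 15 (24.6%) were higher in CAST and 2 (3.28%) in PWK, with 12 and 2 after centring within each chromosome and 9 and 1 after loess. The H2-D1 promoter region, at a classical class I gene of the major histocompatibility complex (chr17:35262312-35270164, 7853 bases wide), had summit signals of 1694 and 1905 in CAST and 202 and 119 in PWK (log2 difference 2.21 ± 0.23, adjusted p = 1.9e-06). The scaled signals were 26.5 and 23.5 against 5.05 and 5.95. The H2-K1 promoter differed by 1.45 and a region 10740 bases from Tap2, a peptide transporter gene, by 1.77, and with the deposited mean signal neither H2-D1 nor H2-K1 passed. The regions higher in PWK, chosen after their values were seen, were the promoters of Ifit2 (-1.09, and -1.49 within chromosome 19) and Mx2 (-1.27). Class I genes have near-identical copies, so reads may be misplaced and these values are uncertain. Of 7 leukocyte marker promoters, Ptprc had a peak in 3 samples (scaled signals 0.321 in the CAST male, 0.375 and 0.3 in PWK), Cd79a in 3 samples (0.5 and 0.42 in CAST, 0.7 in the PWK male) and the others in none, and the part of such cells in these values was not tested.

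Immediate early and clock genes had more regions higher in CAST than in PWK. Of 38 regions of immediate early and AP-1 genes, 5 (13.2%) were higher in CAST and 0 in PWK, with 5 and 0 after centring within each chromosome, though not the same regions, and 3 and 0 after loess. The 5 lay near Fosl1 (log2 difference 1.34, and 0.95 with an adjusted p of 0.044 within chromosome 19), at or near Npas4 (2 regions), near Junb and, chosen after its values were seen, near Atf3 (0.97, adjusted p = 0.028). The activity-regulated factor gene Npas4 had scaled signals of 1.45 and 1.19 in CAST and 0.450 and 0.550 in PWK at its promoter (log2 difference 1.35, adjusted p = 0.0093). Within chromosome 19 this difference was 0.95 and did not pass (adjusted p = 0.064). A region near Junb on chromosome 8 differed by 0.95 (adjusted p = 0.026). Of 63 regions of circadian clock genes, 8 (12.7%) were higher in CAST and 2 (3.17%) in PWK, with 5 and 2 both after centring within each chromosome and after loess. Arntl, the activator of the clock, was called in both directions. Its promoter region was higher in PWK (chr7:113239835-113240099; scaled signals 0.344 and 0.531 against 1.5 and 1.75, log2 difference -1.87 ± 0.34, adjusted p = 8.2e-04), as was an intron of it (-1.62; chosen after its values were seen). Another Arntl intron (chr7:113289200-113289599; chosen after its values were seen) was higher in CAST by 1.43 (adjusted p = 0.0092), and by 1.35 within its chromosome (adjusted p = 0.017). Regions at Per1 and near Nr1d1, genes of its repressors, were higher in CAST by 1.30 and 1.35. Per1 and Nr1d1 lie on chromosome 11, and within that chromosome their differences were 0.55 and 0.59 and did not pass (adjusted p = 0.19 and 0.22).

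Transcription factors of beta and other endocrine cells were called in both directions. Of 121 regions, 10 (8.26%) were higher in CAST and 7 (5.79%) in PWK. After centring within each chromosome 6 were higher in each strain, since 4 regions at Glis3 and Rfx3 on chromosome 19 (chosen after their values were seen) no longer passed, and after loess 6 and 4 were. The 3 with the smallest adjusted p were all higher in PWK: the promoter of St18 (chr1:6804613-6806879; scaled signals 0.531 and 0.370 in CAST against 2.45 and 1.35 in PWK, log2 difference -1.99 ± 0.36), an intron of Rfx6, a factor needed for islet development (-1.88 ± 0.37), and a region 14102 bases from Nkx2-2 (-1.43 ± 0.32). Among regions of alpha and delta cell factors, an intron of Dach1 was higher in PWK (-1.59 ± 0.39, adjusted p = 0.0075). At the hormone genes 1 of 11 regions passed, the Ins2 promoter (log2 difference 0.92 ± 0.29, adjusted p = 0.036; 0.84 and adjusted p = 0.060 within its chromosome). Its scaled signals were 2.91 and 2.48 in CAST and 1.63 and 1.25 in PWK. A region 9779 bases from Ins1 on chromosome 19 differed by 0.70 (adjusted p = 0.054) and by 0.31 within its chromosome.

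Of 245 regions of granule and exocytosis genes, 16 (6.53%) were higher in each strain, and 13 and 10 were higher in CAST and PWK after loess. The largest difference was at the promoter of Rab27a, the GTPase that tethers insulin granules (chr9:73094409-73096242). Its summit signal was 22 and 18 in CAST and 138 and 74 in PWK, and the scaled signals were 0.344 and 0.222 against 3.45 and 3.70 (log2 difference -3.60 ± 0.33, adjusted p = 3.7e-07). The 12 samples of the other strains, at 1.02 to 3.02 on the 16-sample scale, were all above the CAST samples (0.208 and 0.132). A region near Scg5, which encodes a chaperone of prohormone convertase, was higher in CAST by 2.62 ± 0.32 (177 and 253 against 15 and 11). Ptprn2, a granule membrane protein gene with many intronic regions, held 9 of the regions higher in PWK, the one of smallest adjusted p at -1.80 ± 0.33, and 4 of those higher in CAST, of up to 1.90.

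Receptor genes had 9 of 119 regions (7.56%) higher in CAST and 8 (6.72%) in PWK, with 8 and 5 after loess. An intron of Igf1r was higher in PWK (chr7:68030215-68031152; scaled signals 0.609 and 0.593 against 3.10 and 2.15, log2 difference -2.06 ± 0.32, adjusted p = 1.4e-04), as was an intron of the muscarinic receptor gene Chrm3 (-1.79), and an intron of Gabbr2 was higher in CAST (1.32). Genes associated with type 2 diabetes had 11 of 261 regions (4.21%) higher in CAST and 18 (6.90%) in PWK, both percentages below those of all regions, with 9 and 11 after loess. Promoter regions of Ptprd (-1.35) and Jazf1 (-1.42) were higher in PWK and one of Thada (1.39) in CAST. Of 66 regions of unfolded protein response genes, 6 were higher in CAST and 3 in PWK, the latter in introns of Atf6 (-0.93), Dnajc3 (-1.0) and Sel1l (-1.06; all 3 chosen after their values were seen), with 3 and 0 after centring within each chromosome. A region near Eif2ak3, which encodes the endoplasmic reticulum stress kinase PERK, had summit signals of 526 and 771 in CAST and 89 and 28 in PWK (log2 difference 2.33 ± 0.28, adjusted p = 8.4e-06). Regions at Xbp1 and Ern1 differed by 1.46 and 1.31, both on chromosome 11 and neither past the threshold within it (0.70 and 0.55, adjusted p = 0.12 and 0.30). Of 25 regions of genes that beta cells normally silence, 3 were higher in CAST, at Acot7 (1.41), Hk1 (0.99) and Slc16a1 (0.99), of which Hk1 and Slc16a1 did not pass after loess (adjusted p = 0.061 and 0.084), and 1 in PWK, a second Acot7 region (-1.62; chosen after its values were seen).

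Lists for other cell types held few regions. The percentages higher in CAST and in PWK were 14.3% and 21.4% for leukocyte, 15.4% and 7.69% for endothelial and 6.25% and 12.5% for stellate cell genes. After centring within each chromosome the endothelial list had 0 and 1 called and the stellate list 1 and 3, and after loess the leukocyte list had 0 and 3. Duct genes had none of 20 regions called in limma (none with cyclic loess either), with the smallest adjusted p, 0.13, at Krt7. Acinar genes had 1 of 10, an exon of Nr5a2 (0.92, adjusted p = 0.017). Endothelial genes had 2 of 13 higher in CAST, an intron of Pecam1 (1.34 on chromosome 11, and 0.58 within it) and a region near Plvap (0.83), and 1 higher in PWK, an intron of Tek (-2.08 ± 0.29, adjusted p = 4.2e-05; scaled signals 0.891 and 1.10 against 4.5 and 4.1). The 12 samples of the other strains were at 1.88 to 6.65 on the 16-sample scale for the Tek region, above both CAST samples (0.538 and 0.654 on that scale). Of 14 regions of leukocyte genes, 2 were higher in CAST, near Cd68 (0.93 on chromosome 11, and 0.18 within it) and Spi1 (0.84), and 3 in PWK, all in introns of Ptprc (-2.12 and, chosen after their values were seen, -2.13 and -0.99). Of 16 regions of stellate cell genes, 1 was higher in CAST, the promoter of Col1a2 (1.68), and 2 in PWK, an exon of Pdgfrb (-1.79, and -1.35 within chromosome 18) and, chosen after its values were seen, a region near Col1a2 (-1.57).

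Of 5 genes that the study examined closely, Abcc8 alone had tested regions that passed. In an Adcy5 intron (chr16:35223924-35224355), at the gene of an adenylate cyclase, the summit signal was 107 and 104 in CAST and 38 and 12 in PWK, a log2 difference of 0.93 ± 0.33 that did not pass (adjusted p = 0.063). There 11 samples of the other strains also held a peak. The study described an Adcy5 intron as more open in both CAST and PWK than in the other strains. Another Adcy5 intron (chr16:35255720-35256199) held a peak in all 4 samples and in none of the other strains. Its signals were 73 and 64 in CAST and 38 and 13 in PWK (log2 difference 0.25 ± 0.35, adjusted p = 0.66). A Pdx1 promoter region 966 bases from the start site differed by 0.61 ± 0.29 (adjusted p = 0.15), and the one over the start site by 0.24 (adjusted p = 0.71). A Nomo1 promoter region 1761 bases from the start site differed by 0.45 ± 0.37 (adjusted p = 0.43), and the one over the start site by 0.06 (adjusted p = 0.91). Another, 2427 bases from a start site (chr7:46085072-46086144), was not tested, as the PWK male had no peak. Its summit signal was 69 and 76 in CAST and 7 in the PWK female. A region within Kcnq1 had 29 and 32 in CAST but 78 and 5 in PWK, so that the PWK samples lay on both sides of the CAST samples (log2 difference -0.78 ± 0.56, adjusted p = 0.36). The region over the Kcnq1 start site (chr7:143107088-143107319) was called in CAST only and so not tested, with summit signals of 35 and 34.

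Short motifs were counted in the 200 bases around the highest summit of each region, on both strands, as a description of the reference sequence. Searched for were FOXA (TGTTTAC), a homeodomain core (TAATTA), the E-box that NEUROD1 binds (CAGATGG), the core of HNF1 sites (GTTAAT), a longer site of HNF4 by its letters (CAAAGTCCA), MAF (TGCTGAC), the GATA site (AGATAA), the AP-1 site (TGANTCA), the cyclic AMP response element or CRE (TGACGTCA), an ETS site (CCGGAAGT) and the GC box of SP and KLF factors (GGGGCGG). Matches to the homeodomain and HNF1 cores can overlap. Away from promoters, AP-1 was found in 20.1% of the tested windows, in 16.3% of those higher in CAST and in 25.8% of those higher in PWK. The CRE, to which cyclic AMP responsive factors bind, was found in 0.539% of the tested windows, 2.12% of those higher in CAST and 0.349% of those higher in PWK. FOXA was found in 7.34%, 10.2% and 6.83%, and the HNF1 core in 11.3%, 13.8% and 9.23%. After centring within each chromosome the percentages in the regions higher in CAST and in PWK were 16.1% and 26% for AP-1, 1.97% and 0.349% for the CRE, 9.54% and 6.70% for FOXA, and 14.2% and 9.47% for the HNF1 core.
The order held for AP-1 in each of the 5 groups by mean level, from 16% and 22.4% in the lowest to 18% and 22.8% in the highest. Of all tested windows, 19.4% held it in the lowest group and 22.5% in the highest, there close to the regions higher in PWK. For the CRE the order held in the upper 4 groups, with 2.45% and 0.469% in the highest. In the lowest group none of 75 windows higher in CAST held a CRE. FOXA was more frequent in the windows higher in CAST than in those higher in PWK in each group. In the second lowest group it was found in 6.51% and 6.08%, both below the 7.05% of all tested windows. Among the one-strain regions away from promoters, AP-1 was found in 13.6% of the CAST-only and 18.6% of the PWK-only windows, against 15.6% of all merged regions. The homeodomain core went slightly the other way, with 7.25% and 5.90% against 6.71%. The CRE, at 0.533% and 0.416% against 0.330%, and FOXA, at 6.17% and 5.87% against 5.37%, differed little between the CAST-only and PWK-only windows. The median GC content of the windows away from promoters was 47.5% in the regions higher in CAST and 47.0% in those higher in PWK. At promoters the GC box was found in 20.2% of the tested windows, 17.5% of those higher in CAST and 7.51% of those higher in PWK. Their median GC content was 56.0%, 55.0% and 49.5%. A match does not show that a factor was bound.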

How the data were processed

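ATAC-seq peak lists of the 4 islet samples were used as deposited, with those of the other 12 samples for placement. Per the study's methods, the authors trimmed reads with cutadapt 2.0, aligned them to mm10 with Bowtie2 2.3.4.1, removed mitochondrial and duplicate reads (SAMtools, Picard 2.9.2) and used MOSAiCS to call the peaks of each sample, with 0.05 as the false discovery rate; a correction for the Tn5 cut offset was not given in the sources used here. The deposited summit signal is a whole number not scaled to depth, and the authors' −log10 p-value ranked peaks in an alternative. The strain-level lists were not used here. CAST and PWK reads were placed on the C57BL/6J reference, so variants may change where they align.

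Peaks sharing at least 1 base were merged on 19 autosomes, the highest summit per sample was taken, and log2(signal + 1) was centred on the sample's median over regions called in all 4. Differences (CAST minus PWK, n = 2 each) were tested with limma 3.58.1 in R 4.3.3 (trended prior, Benjamini-Hochberg threshold 0.05), without a sex term; an exact permutation test of 2 against 2 cannot go below 0.333. In simulated data for this comparison, 50 of 67883 regions were changed at each size, far fewer than were called in the data. Of these, 41 of 50 log2 changes of 2 and 1 of 50 of 1 were recovered. Signals give no read depth, so no counting interval is given. Genes are GENCODE M21 on GRCm38, sequences GRCm38.p6. Named regions were the 10 largest per direction and per strain up to 5 kb wide, up to 3 per gene list by smallest adjusted p, those of 5 study genes, and 5 windows of 1 Mb per strain. Members, lists and motifs were chosen with earlier results of these data known. Alternatives covered normalization, pseudocount, measure, samples and overlap. Results at a few listed genes are not reported here.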

Additional observations from a re-analysis of the deposited data

How the results depend on the processing

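Counts of regions higher in CAST and regions higher in PWK stayed within 1.5 times of 4432 and 6543 with sex as a replicate block (4348 and 6779; the labels give no shared replicate numbers), loess, GC-bin centring, a pseudocount of 10 or 0.1, no variance trend, regions up to 5 kb and 3 alternatives chosen after seeing the data (centring within each chromosome, this with loess, and chromosomes 11, 18 and 19 left out). They moved to 26475 and 263 without centring, 2244 and 2505 with the mean signal, 2206 and 2802 in regions called in at least 3 samples, 2588 and 2433 in the upper part by signal (33990 tested) and 1892 and 3648 with all 16 samples; quantile normalization gave 3792 for PWK. The cause of these moves was not tested. Leaving out 1 sample gave 715 to 13607 and 2108 to 12867. For regions called in both CAST and neither PWK sample and regions called in both PWK and neither CAST sample, leaving out 1 sample gave 29228 to 47338 and 11325 to 59381, among 186389 to 220434 regions. Keeping the peaks of higher −log10 p gave 11366 for CAST among only 94631 regions, against 24410 among 236245. Requiring coverage of much of the region gave 37352 for CAST among 236213.

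Of 75 named tested regions, 62 were called. Some lost the call without a CAST sample and none without a PWK sample, the spread then coming from the remaining pair alone. The call was also lost by 18 with the mean signal, 14 without centring, 15 with loess within chromosomes, 10 with centring within chromosomes, 8 with quantile normalization, 8 of the 55 tested with all 16 samples, 7 with loess, 6 with GC-bin centring, and 2 each with the replicate block and a pseudocount of 0.1. Those that changed sign were regions not called: without centring Etv1 (0.41), Cel (0.83), Cftr (0.50), Acta2 (0.56) and Kcnq1 (0.53); with the mean signal Iapp (-0.037), Prss2 (-0.30), Krt18 (-0.13) and Pdx1 (-0.39); with a pseudocount of 10 Prss2 (-0.13). Leaving out 1 sample, Cel ranged from -0.97 to 0.049, Prss2 from -0.64 to 1.87 and Kcnq1 from -2.16 to 0.64.

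The PWK male's low signals, 2 samples per strain and the shared sex difference limit these comparisons. In the simulated data a log2 change of 1 was rarely recovered, but few regions were changed there. That rate does not carry over to the data, where the smallest absolute log2 differences called were 0.70 for CAST and 0.68 for PWK.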

Other observations

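Displacement of chromosomes 11, 18 and 19 was not limited to CAST and PWK. In the 41212 regions called in all 16 samples, the median log2 level of a chromosome relative to the median of the 16 samples lay between -0.20 and 0.12 for the other 16 autosomes in all samples, but between -0.44 and 0.51 on chromosome 11, between -0.33 and 0.25 on chromosome 18 and between -0.80 and 0.30 on chromosome 19. On chromosome 11 the lowest values were those of the PWK male (-0.44) and female (-0.36), and the highest that of the NZO male (0.51), with the NZO female at 0.09. The lowest value on chromosome 19 was that of the B6 male (-0.80), with the B6 female at -0.59.

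Promoters of ribosomal protein genes, which every cell uses, had a median log2 difference of 0.20 over 75 regions, with 5 higher in CAST and 0 in PWK (1 and 0 after centring within each chromosome).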
